A study of Mus musculus with 8 samples.

Results

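The respiratory chain subunits examined here are the proteins of complexes I to IV of the inner mitochondrial membrane. They were chosen by gene name: the Nduf a, b, c, s and v genes, Sdha to Sdhd, the Uqcr genes, the Cox4i, Cox5, Cox6, Cox7 and Cox8 genes, and the mt-Nd, mt-Co and mt-Cytb genes of the mitochondrial genome, with names ending in -ps left out. The rule found 79 genes among the 20681 rows of the table, 68 in the nucleus and 11 in the mitochondrial genome, and used no measured value. A total of 78 passed the filter on low values (at least 10 normalised reads in at least 4 of 8 libraries). The exception was Cox6c2, at 1.09 to 12.2 normalised reads, which the annotation lists as a processed pseudogene, as it does Ndufb4c and Ndufs6b. GENCODE M21, on the same build as mm10, matched all 79.

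The study measured poly-A RNA in 8 knee joint samples from mice, with 4 libraries in the control group and 4 in the knockout group by their labels. All came from mice with an aggrecan (Acan) Cre together with floxed alleles of Loxl2, a collagen-crosslinking enzyme, where deletion is limited to cells that express aggrecan, chiefly chondrocytes. The control libraries are named Vehicle and LOXL2wt and the others KO and LOXL2ko. Any agent that the knockout group received in place of vehicle is not named in the labels and is part of the contrast. All 8 library names carry DMM, usually a surgical injury of the meniscus. Age, sex and time after surgery are not given in the sources used here, nor whether each library is 1 animal, so p-values measure the spread between these libraries.

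Libraries held 13991000 to 17411617 reads assigned to genes. The transcript of the targeted gene went against the labels: Loxl2 stood at 282, 349, 1135 and 311 normalised reads in control replicates 1 to 4 and at 893, 1468, 960 and 1518 in knockout replicates 1 to 4, a log2 difference of 1.44 (limma adjusted p = 0.0294). Directions are therefore between the libraries labelled control and those labelled knockout, and "control libraries" and "knockout libraries" stand for those labels. A knee sample includes skeletal muscle: the 18 genes of the skeletal muscle list (among them Ryr1, the calcium release channel, and Casq1) held 6.84% to 7.53% of summed values in the control libraries and 5.13% to 5.77% in the knockout libraries. All 18 were lower, 12 of them called, with a median log2 difference of -0.61. In bulk RNA, fewer cells of a type and less RNA per cell cannot be told apart. Macrophage genes were called higher for 8 of 8 (summed level 1407 to 3229 against 5006 to 6777) and fibroblast genes for 7 of 10 (65148 to 189389 against 213436 to 361808). Of the brown fat markers, Ucp1 was at 0 in 5 of 8 libraries and at most 9.41 normalised reads. Fast fibre genes were called lower for 4 of 10, osteoclast genes higher for 7 of 8, chondrocyte genes for 1 of 9 and brown fat genes for 1 of 3. Over all tested genes limma called 11.6% lower and 11.6% higher, so the 1 of 9 chondrocyte genes is near the background. Limma called 0 slow fibre, fat cell, erythroid and neutrophil genes, with 0 of 8, 1 of 8, 7 of 7 and 1 of 8 lower at an unadjusted p under 0.05. In these lists edgeR called 0 genes and DESeq2 1, a fat cell gene. Of the 7 erythroid genes, 0 were lower at an unadjusted p under 0.05 with edgeR or with DESeq2. The part of these cell types in the results was not tested.

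The respiratory chain passes electrons from NADH (complex I) and succinate (complex II) through complex III and cytochrome c to oxygen at complex IV, and complexes I, III and IV pump protons that drive ATP synthase. Most subunits are encoded in the nucleus, and a core of hydrophobic subunits of complexes I, III and IV in mitochondrial DNA. Skeletal muscle is rich in mitochondria and uses its own forms of several complex IV subunits (Cox6a2, Cox7a1 and Cox8b) in place of the widely expressed forms (Cox6a1, Cox7a2 and Cox8a).

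Upstream sequences are shown for 5 of these 6 paired forms, whose ratios were compared; that of Cox6a2 is not shown here. Each runs 5′ to 3′ over the 250 bases before the RefSeq start site (GRCm38.p6). Capitals mark matches, on either strand, to NRF1 (GCGCA and GCGC with any 1 base between them), ETS (CCGGAAG), YY1 (AAGATGGC), ERR (CAAGGTCA), the myogenic E-box CAGCTG, the MEF2 motif or TATAAA; none of these overlapped another in the sequences shown. Cox6a1 lies on the minus strand (chr5:115348959-115349208), as do Cox8a (chr19:7217617-7217866), Cox7a2 (chr9:79759854-79760103) and Cox8b (chr7:140900447-140900696), and Cox7a1 on the plus strand (chr7:30183921-30184170).
Cox6a1: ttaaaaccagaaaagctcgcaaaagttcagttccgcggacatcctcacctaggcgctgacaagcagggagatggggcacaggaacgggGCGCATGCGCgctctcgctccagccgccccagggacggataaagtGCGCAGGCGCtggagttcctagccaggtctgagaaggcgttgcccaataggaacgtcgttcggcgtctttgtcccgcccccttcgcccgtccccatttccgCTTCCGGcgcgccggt
Cox8a: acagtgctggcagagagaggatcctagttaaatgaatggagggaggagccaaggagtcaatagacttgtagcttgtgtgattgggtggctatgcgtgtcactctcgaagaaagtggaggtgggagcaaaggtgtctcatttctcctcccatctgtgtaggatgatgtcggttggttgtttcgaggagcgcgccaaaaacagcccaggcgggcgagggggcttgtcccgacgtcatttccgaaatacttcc
Cox7a2: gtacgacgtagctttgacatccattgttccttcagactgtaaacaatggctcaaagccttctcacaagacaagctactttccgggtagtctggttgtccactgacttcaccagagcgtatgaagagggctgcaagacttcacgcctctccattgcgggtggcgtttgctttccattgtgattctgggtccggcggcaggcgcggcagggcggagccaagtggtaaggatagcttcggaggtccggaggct
Cox8b: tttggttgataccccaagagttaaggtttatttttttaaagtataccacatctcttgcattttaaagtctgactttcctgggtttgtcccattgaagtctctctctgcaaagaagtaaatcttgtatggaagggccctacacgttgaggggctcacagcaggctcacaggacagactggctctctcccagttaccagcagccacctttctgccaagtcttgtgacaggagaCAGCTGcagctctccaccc
Cox7a1: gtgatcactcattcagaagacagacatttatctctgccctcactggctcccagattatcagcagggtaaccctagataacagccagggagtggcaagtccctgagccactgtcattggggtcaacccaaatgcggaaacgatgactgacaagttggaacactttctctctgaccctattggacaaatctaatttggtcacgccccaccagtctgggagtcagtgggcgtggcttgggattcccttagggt
The widely expressed forms hold 26 (Cox6a1), 11 (Cox8a) and 14 (Cox7a2) CpG dinucleotides, and Cox8b and Cox7a1 hold 1 and 4. Without Cox6a2, these counts make no comparison between muscle and widely expressed forms. Cox6a1 has NRF1 matches that begin 162 and 117 bases before the start and an ETS match 16 bases before it. Cox8b has a single match, a CAGCTG 19 bases before the start. In Cox8a, Cox7a2 and Cox7a1 none of these motifs was found in the 250 bases.

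RefSeq held 54 promoter sequences for 52 of the 68 nuclear members, each of 250 bases before and 50 after a start. The NRF1 motif occurred in 22.2% of them, against 4.60% of all 32851 promoters of the same length. For ETS the shares were 20.4% and 8.86%, for YY1 13.0% and 2.75%, and for ERR 3.70% and 1.56%. CAGCTG was in 9.26% of member promoters and 16.3% of all, TATAAA in 11.1% and 13.6%, and the MEF2 motif in 0 of 54 and 3.19%. In 13 promoters of the skeletal muscle list, CAGCTG was in 38.5%, MEF2 in 15.4% and NRF1 in none. Member promoters had a median of 14 CpG in the 250 bases before the start, against 6 in all. A match describes letters and not a bound site.

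Most subunits stood lower in the libraries labelled knockout, by a modest amount. Of 78 tested members, 71 (91.0%) had a log2 difference below 0, against 49.9% of all 14949 genes tested, and the median difference was -0.32 against 0.00. With libraries scaled outside the muscle and blood cell lists and the most abundant genes, these medians were -0.18 and 0.14. Limma called 22 members lower at an adjusted p under 0.05 (28.2%, against a background of 11.6% of tested genes called lower). Only 2, Cox6a1 and Cox8a, were called higher (2.56%, background 11.6%). All 24 are nuclear, where the median was -0.36 over 67 genes. The groups did not overlap for 11 members that were lower, or 14.1%, close to the 13.4% of all genes. With the groups apart and the knockout libraries higher there were 3, Cox6a1, Cox8a and the low-count Cox6b2, a testis form (0.44, limma adjusted p = 0.189), named here after its values were seen (background 11.7%).

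**Figure D1:**
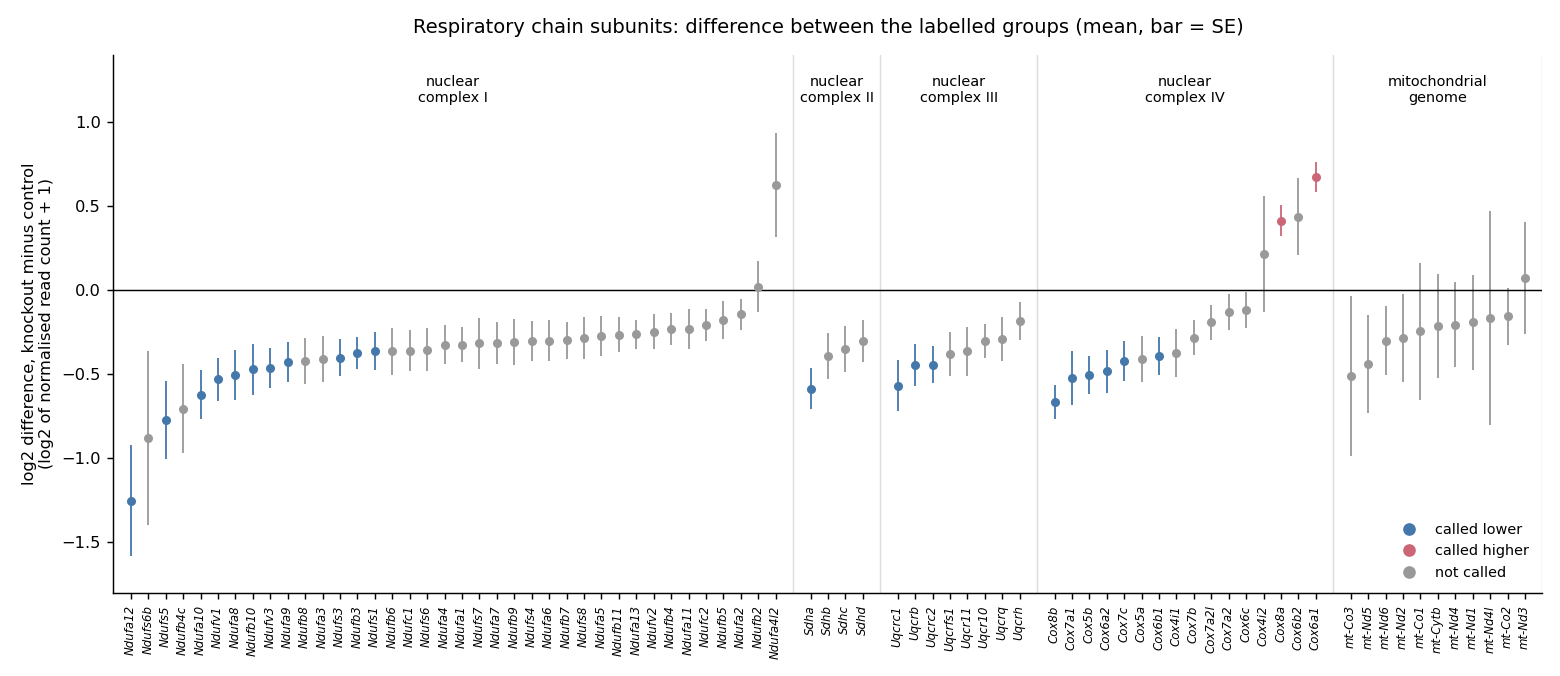
Log2 difference between the labelled groups for 77 of the 78 tested subunits, by complex and genome, with the standard error as a bar and limma calls in colour. In this plot 70 points lie below 0, and the 2 called higher are both nuclear complex IV genes.

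The number of calls depended on single libraries, and knockout replicate 3 lay nearest to the control group. It held the highest knockout value for 60 of 67 nuclear members and was at or above the lowest control library for 55, against 8, 15 and 9 for knockout replicates 1, 2 and 4. Its median log2 distance from the control mean was -0.07, against -0.48, -0.41 and -0.45 for the other three. Without it, 50 members were called lower (64.1%, against 13.4% of all genes in that fit) and the nuclear median was -0.43. The count was also higher without control replicate 1, at 28 (35.9% against 9.42%). It was 13 without control replicate 3 (16.7% against 11.2%), 8 without knockout replicate 1 (10.3% against 8.11%) and 6 without control replicate 4 (7.69% against 6.96%). The members' share was below that of all genes in 3 fits: 6 members without knockout replicate 2 (7.69% against 8.37%), 4 without control replicate 2 (5.13% against 6.11%) and 3 without knockout replicate 4 (3.85% against 6.15%). The excess of calls among the members thus did not hold without each library, while 70 to 74 of the 78 were below 0 in these 8 fits. The muscle list did not place knockout replicate 3 among the controls: its score (mean log2 value of the list) was 14.7, against 14.3 to 14.5 in the other knockout libraries and 15.0 to 15.3 in the control libraries. The erythroid list did, at 11.09, against 7.32 to 9.73 in the other knockout libraries and 9.87 to 12.27 in the control libraries. Its fibroblast score, 12.79, was the lowest of the knockout group but above the highest control library, 12.57. The macrophage score, 9.19, was also above every control library (highest 8.21). Whether cell content set this library apart was not tested.

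**Figure D2:**
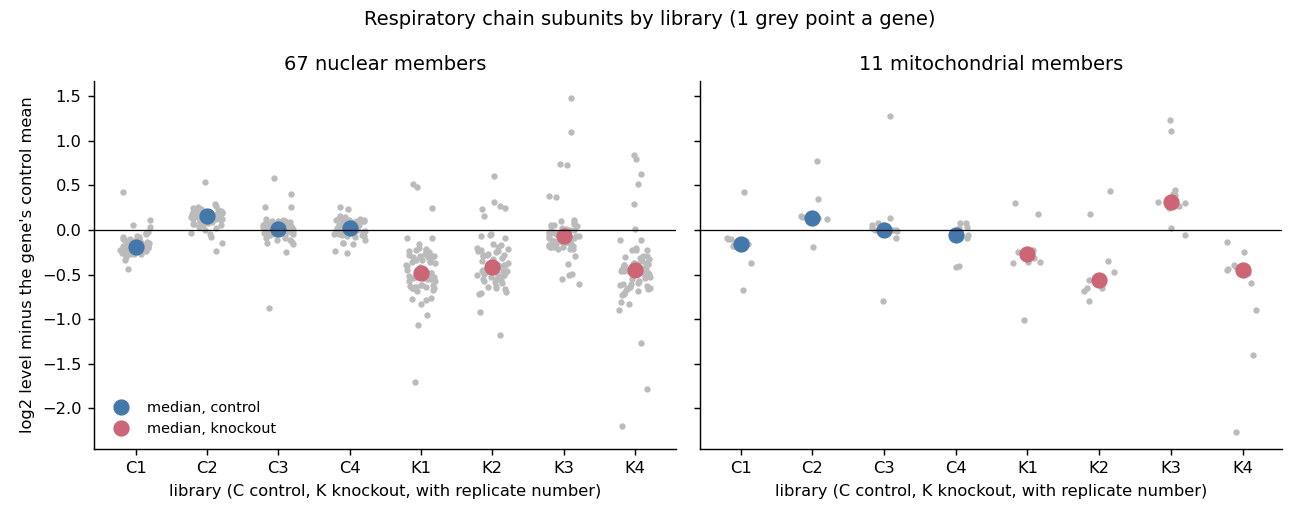
Log2 level of every tested subunit minus its own control mean in each library, for nuclear (left) and mitochondrial (right) genes, with large points at the median. In the nuclear panel knockout replicate 3 sits at -0.07 and the other knockout libraries between -0.48 and -0.41; in the mitochondrial panel it sits at 0.31.

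In complex IV, the oxidase that reduces oxygen to water, the muscle form fell and the widely expressed form rose in 2 of 3 pairs, Cox8b with Cox8a and Cox6a2 with Cox6a1. Cox8b, the muscle form of a small membrane subunit, was at 3310, 4024, 3966 and 4173 normalised reads in control replicates 1 to 4 and at 2420, 2444, 2705 and 2162 in knockout replicates 1 to 4. Every knockout library was below every control library, a log2 difference of -0.67 (standard error, SE, 0.10, limma adjusted p = 0.00456). Its widely expressed counterpart Cox8a was at 702, 652, 772 and 765 in the control libraries and 1009, 871, 942 and 1031 in the knockout libraries. Here every knockout library was above every control library, a log2 difference of 0.41 (SE 0.09, limma adjusted p = 0.0131).

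Cox6a2, the muscle form of another small subunit, was at 10766, 13619, 12067 and 12033 in the control libraries and 8877, 7475, 10560 and 7944 in the knockout libraries. The groups were separate and the log2 difference was -0.48 (SE 0.13, limma adjusted p = 0.0237). Cox6a1, its widely expressed form, was at 740, 681, 770 and 697 in the control libraries and 1034, 1098, 1201 and 1289 in the knockout libraries. The rise was the largest among the members, 0.67 (SE 0.09, limma adjusted p = 0.00397), and the groups were separate. Cox6a2 (chr7:128205435-128206387, mm10) lies opposite Itgad, whose reads could not be told apart from its own if strand was not used. In knockout replicate 3, where most subunits were near the control level, Cox6a1 (1201) and Cox8a (942) were still above every control library.

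The remaining pair differed on its widely expressed side. Cox7a1, the muscle form, was at 1695, 2261, 2562 and 2128 in the control libraries and 1244, 1564, 1932 and 1303 in the knockout libraries, a log2 difference of -0.52 (SE 0.16, limma adjusted p = 0.0426), and the groups overlapped. Cox7a2 was at 1544, 1965, 1796 and 1931 in the control libraries and 1455, 1616, 1870 and 1663 in the knockout libraries. The groups overlapped, and the difference of -0.13 was not called (limma adjusted p = 0.392). Cox7a2l, a related protein that joins complexes III and IV into supercomplexes, was not called either (-0.19, limma adjusted p = 0.199).

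**Figure D3:**
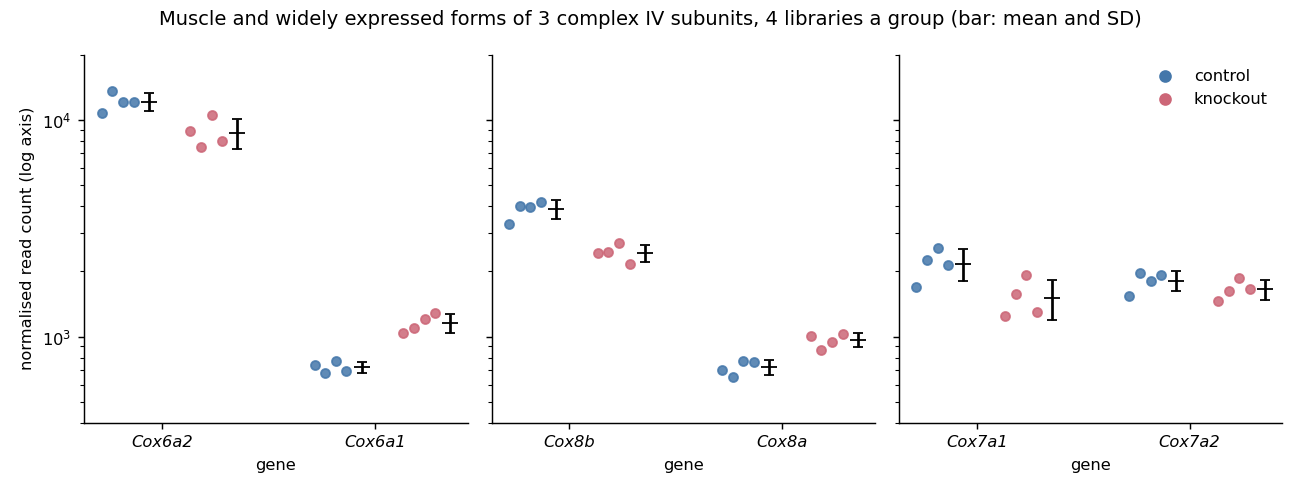
Normalised read counts on a log axis for the muscle form (left in each panel) and the widely expressed form (right) of 3 complex IV subunits, 1 point per library, with mean and SD. Cox6a2 and Cox8b are lower in all 4 knockout libraries than in any control library, and Cox6a1 and Cox8a are higher.

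A ratio of forms within a library does not depend on how libraries were scaled. The log2 ratio of Cox6a2 to Cox6a1 averaged 4.06 ± 0.20 over control libraries and 2.91 ± 0.25 over knockout libraries (SD, n = 4), a difference of -1.16 (exact two-sided permutation p = 0.0286, the smallest that 70 assignments allow; 0.0476 adjusted over 5 pairs). For Cox8b to Cox8a it was 2.42 ± 0.16 and 1.33 ± 0.21, a difference of -1.08 with the same exact permutation p-values. For Cox7a1 to Cox7a2 it was 0.25 ± 0.18 and -0.14 ± 0.18, a smaller difference of -0.39, also with groups apart and the same exact p-values. In the Cox6a2 and Cox8b pairs both genes were already apart in opposite directions, which fixes these exact p-values. They add no separate support there. Per kilobase of annotated exon, the control mean of Cox6a2 was 17.3 times that of Cox6a1 and the knockout mean 7.79 times; for Cox8b over Cox8a the figures were 9.20 and 4.34 times, and for Cox7a1 over Cox7a2 2.11 and 1.61 times. The muscle list fell over the same libraries, and its part in these ratios was not tested.

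Among the other pairs, Ndufa4l2, a paralogue of the subunit Ndufa4 that is known to be induced by low oxygen, was at 181 to 324 normalised reads in the control libraries and 230 to 685 in the knockout libraries. Its log2 ratio to Ndufa4 was -4.53 ± 0.27 and -3.58 ± 0.69 (SD, n = 4), a difference of 0.95 that missed the threshold (exact permutation p = 0.0571, 0.0714 adjusted over 5 pairs), and neither gene was called (0.62 and -0.32, limma adjusted p = 0.168 and 0.0659). Cox4i2, a form enriched in lung and regulated by oxygen, stood at only 24.9 to 92.4 reads, and its ratio to the common form Cox4i1 differed by 0.59 (exact permutation p = 0.143). Neither Cox4i2 (0.21, limma adjusted p = 0.683) nor Cox4i1 (-0.37, limma adjusted p = 0.0836) was called. With 1 library left out, the differences ran from 0.70 to 1.19 for Ndufa4l2 and from 0.42 to 0.86 for Cox4i2. The highest value of each was without knockout replicate 1, the knockout library in which both ratios were lowest; that fit alone passed the threshold (exact permutation p = 0.0286 each, not adjusted over the pairs) and supports no call. Ndufa4l2 lies opposite Shmt2, and Cox4i1 opposite Emc8, so their counts are uncertain where strand was not used. Cox4i1 also overlaps Gm20388 on its own strand, so its count is uncertain even if strand was used.

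Of the 16 tested nuclear genes sorted by name to complex IV, 6 were called lower (37.5%, background 11.6%) and 2 higher (12.5%, near the background of 11.6%). Beside the muscle forms, Cox5b, a zinc-binding subunit on the matrix side, fell from 4322 ± 271 to 3067 ± 507 (SD, n = 4), with control libraries at 3920 to 4516 and knockout libraries at 2687 to 3811. The groups were separate and the log2 difference was -0.51 (SE 0.11, limma adjusted p = 0.0148). Cox7c (-0.42, limma adjusted p = 0.0314) and Cox6b1 (-0.39, limma adjusted p = 0.0338) were called with overlapping groups. In both, 3 of 4 knockout libraries were below the lowest control library.

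Complex I, the NADH dehydrogenase, had 12 of 39 nuclear genes called lower by limma (30.8%, background 11.6%), with a median of -0.32. Limma called 0 higher, also at an unadjusted p under 0.05. With edgeR and with DESeq2, 0 were called higher and 1 was higher at an unadjusted p under 0.05. Its nuclear core subunits, which carry the flavin and the iron-sulfur clusters or bind the quinone, were all below 0. Of these, 4 of 7 were called lower (57.1%, background 11.6%). Ndufv1, the flavin-bearing subunit, was at 6056, 7492, 7008 and 7495 in the control libraries and 4447, 4430, 6239 and 4442 in the knockout libraries, a log2 difference of -0.53 (SE 0.13, limma adjusted p = 0.0191). Only knockout replicate 3 reached the control range. Ndufs3 differed by -0.40 (limma adjusted p = 0.0301) and Ndufs1, with several iron-sulfur clusters, by -0.36 (limma adjusted p = 0.0437). Ndufs7 (-0.32), Ndufs8 (-0.28) and Ndufv2 (-0.25) were not called (limma adjusted p = 0.117 to 0.158).

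Accessory subunits of complex I spread more widely: 8 of 32 were called lower (25%, background 11.6%) and the median was -0.32. Genes were sorted into complexes by name alone. The accessory set therefore holds Ndufa4 and Ndufa4l2 whatever their complex, and the processed pseudogenes Ndufb4c and Ndufs6b. Ndufa10 (-0.62, limma adjusted p = 0.0165), Ndufv3 (-0.46, limma adjusted p = 0.0208) and Ndufb3 (-0.37, limma adjusted p = 0.0216) had the smallest p-values. The largest fall of any member was in Ndufa12, -1.25 (SE 0.33, limma adjusted p = 0.0242). It was at 1645, 1397, 667 and 1455 in the control libraries and 375, 647, 805 and 354 in the knockout libraries. Control replicate 3 was below the other control libraries, and knockout replicate 3 was the highest of its group and above that library. The other 4 called, outside the rule for named genes and given for completeness, were Ndufs5 (-0.77), Ndufa8 (-0.51), Ndufb10 (-0.47) and Ndufa9 (-0.43), each with overlapping groups. The call of Ndufa12 was lost without any of control replicates 1, 2 and 4 and knockout replicates 1 and 4, with limma adjusted p up to 0.0727.

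Complex II, the succinate dehydrogenase, is shared with the citric acid cycle and wholly encoded in the nucleus. Its catalytic flavoprotein gene Sdha was at 13848, 19026, 15952 and 15935 in the control libraries and 10341, 10613, 12320 and 9741 in the knockout libraries. All 4 knockout libraries were below every control library, a log2 difference of -0.59 (SE 0.12, limma adjusted p = 0.0111). Sdha (chr13:74322254-74350280) overlaps Gm16125 on the opposite strand. The iron-sulfur subunit gene Sdhb (-0.39, limma adjusted p = 0.0622) and the membrane anchors Sdhc (-0.35, limma adjusted p = 0.0856) and Sdhd (-0.30, limma adjusted p = 0.102) were lower without a call, each with overlapping groups.

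Complex III had all 8 of its nuclear members, the Uqcr genes, below 0, with a median of -0.37. Of these, 3 were called lower (37.5%, background 11.6%). Cyc1, the cytochrome c1 gene of this complex, lies outside the naming rule and was not called (-0.39, limma adjusted p = 0.0658). The core proteins Uqcrc1 and Uqcrc2, which have no redox centre, differed by -0.57 (limma adjusted p = 0.0260) and -0.44 (limma adjusted p = 0.0189). Uqcrc2 was at 6060, 7349, 6201 and 7236 in the control libraries and 4505, 4694, 5784 and 4773 in the knockout libraries, with no overlap. Uqcrb, near the quinone site, was called at -0.45 (limma adjusted p = 0.0293), and the Rieske iron-sulfur gene Uqcrfs1 was not (-0.38, limma adjusted p = 0.0585). Uqcr10 (-0.30, limma adjusted p = 0.0552) and Uqcr11 (-0.36, limma adjusted p = 0.0908) also missed the threshold.

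The 11 genes of the mitochondrial genome showed no call by limma, edgeR or DESeq2, and 0 had an unadjusted limma p under 0.05. They held 11.7% to 13.3% of summed values in the control libraries and 10.1%, 11.4%, 12.2% and 17.9% in the knockout libraries, the last in replicate 3. The 68 nuclear members held 1.36% to 1.61% and 1.27% to 1.53%. The spread was wide: mt-Co1, the catalytic subunit of complex IV and the most abundant of the 79, was at 690547, 857065, 777738 and 790784 in the control libraries and 607072, 495313, 1056064 and 580664 in the knockout libraries. Of its knockout libraries 3 were below every control library and replicate 3 was above all of them.

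That order of libraries held for mt-Cytb, of complex III, and for mt-Nd1, mt-Nd2, mt-Nd4, mt-Nd5 and mt-Nd6, of complex I, in each of which knockout replicate 3 was the highest of all 8 libraries and knockout replicates 1, 2 and 4 were below every control library. Without knockout replicate 3 the median of the 11 genes was -0.46 and not -0.22, and limma called 2 lower, mt-Nd5 and mt-Nd6. In that fit 13.4% of all tested genes were called lower, so 2 of 11 is near the background. With all 8 libraries the log2 differences of these 7 were -0.19 (mt-Nd1), -0.29 (mt-Nd2), -0.21 (mt-Nd4), -0.44 (mt-Nd5), -0.30 (mt-Nd6), -0.22 (mt-Cytb) and -0.25 (mt-Co1), with standard errors of 0.20 to 0.41. The other 4 had far fewer reads and did not share that order: mt-Co2 (-0.16), mt-Co3 (-0.51), mt-Nd3 (0.07) and mt-Nd4l (-0.17). In mt-Nd3 and mt-Nd4l knockout replicate 3 was still the highest of all 8 libraries. Near-identical copies of mitochondrial DNA exist in the nuclear genome, and the handling of reads that match both is not given in the sources used here, so levels of mitochondrial genes are uncertain.

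**Figure D4:**
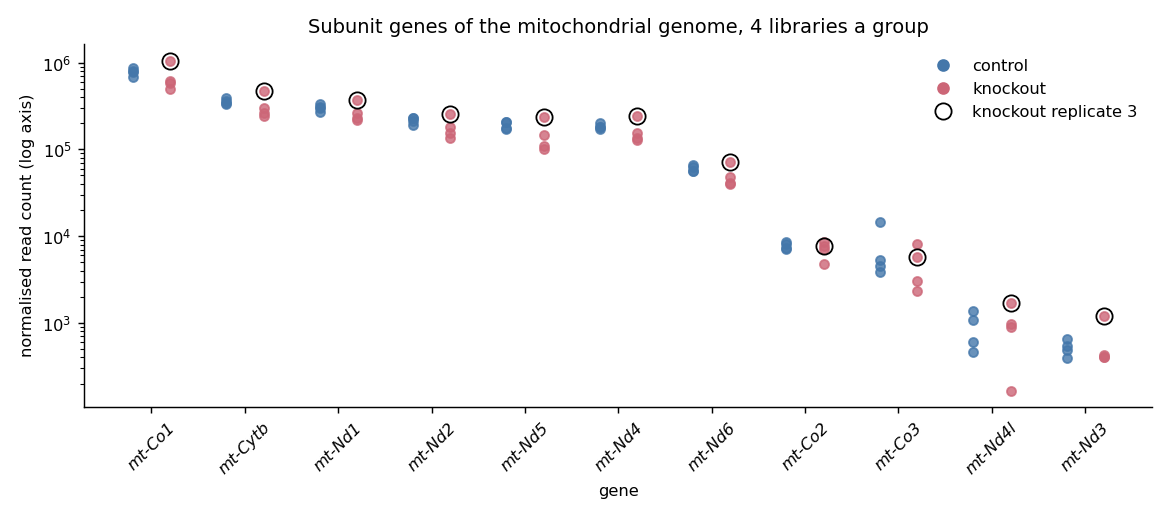
Normalised read counts on a log axis for the 11 mitochondrial subunit genes, 1 point per library, with knockout replicate 3 circled. For every gene but mt-Co2 and mt-Co3 the circled library is the highest of all 8.

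Genes of other mitochondrial lists were called lower in part, read against the 11.6% of all tested genes called lower. The ATP synthase list had 6 of 19 genes called lower and 0 higher (median -0.38), led by Atp5k (-0.51), Atp5mpl (-0.42) and the catalytic subunit Atp5b (-0.57). In the citric acid cycle 12 of 13 were called lower (median -0.54), among them Cs (-0.71) and Ogdh (-0.73), and every gene below 0. The list labelled electron carriers consists largely of Coq genes, most of them for making coenzyme Q, and also holds Ndufab1 and Cyc1. It had 10 of 16 called lower (median -0.42), among them Etfdh (-0.73), Coq5 (-0.54) and Coq9 (-0.55). Assembly factors had 11 of 41, with 38 below 0 (median -0.24; Taco1 -0.73, Coa5 -0.52, Ecsit -0.50), and mitochondrial ribosomal proteins 22 of 77, with 71 below 0 (median -0.25; Mrpl55 -0.69, Mrpl14 -0.65, Mrpl16 -0.59). Of 18 regulators 13 were below 0 and 5 were called lower, among them Polrmt, the mitochondrial RNA polymerase (-0.49), Esrra (-0.45) and Lrpprc (-0.41), while the coactivator gene Ppargc1a was not called (-0.34, limma adjusted p = 0.210). In these 6 lists limma, edgeR and DESeq2 called 0 genes higher, and 0 were higher at an unadjusted p under 0.05.

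Cytosolic ribosomal protein genes, also short and abundant, had 1 of 82 called lower, 2 higher, and a median of 0.06. The one that fell was Rpl3l (-0.61), the muscle form of Rpl3, and Rpl3 itself rose (0.69), so that a muscle form and its counterpart again differed in direction; the other that rose was the low-count Rpl39l (1.80).

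**Figure D5:**
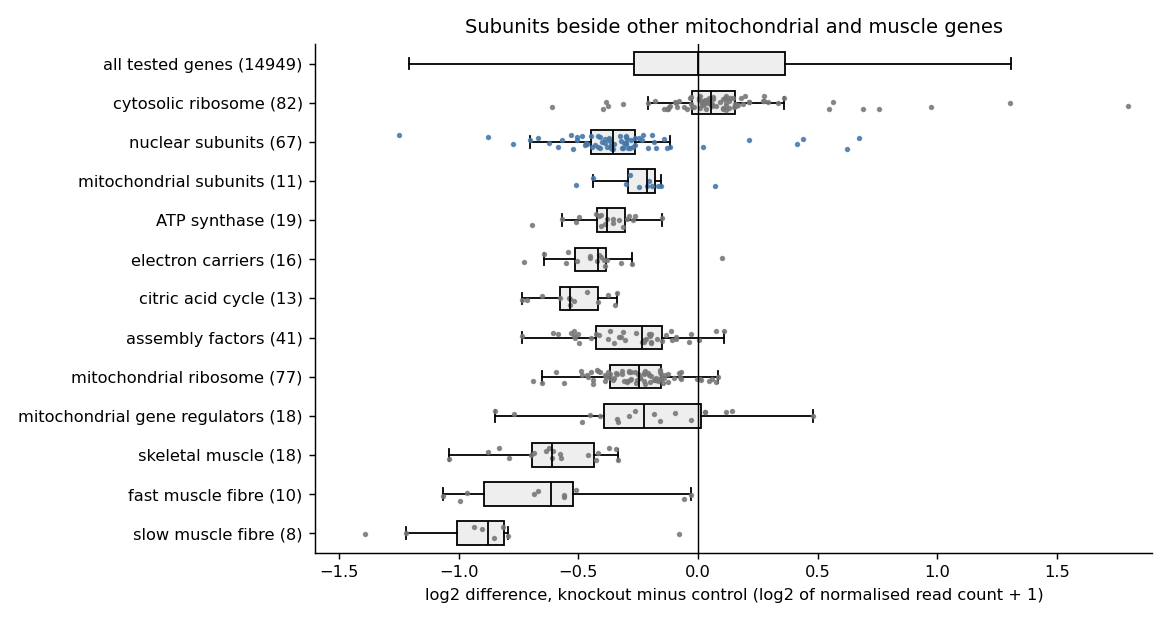
Log2 differences of the subunits (blue) and of other gene lists, with boxes at the quartiles, a line at the median and whiskers at the farthest value within 1.5 box lengths. Nuclear subunits have a median of -0.36, between cytosolic ribosomal genes at 0.06 and the skeletal muscle list at -0.61.

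Measured against the muscle list in the same library, most subunits fell less than the list. Using the list as the scale raises the log2 difference of every gene by the same amount, because the list itself fell. The list's mean score was 15.1 in the control libraries and 14.5 in the knockout libraries. The sign of a member here thus shows only whether it fell more or less than the list. The part of muscle in the fall of the subunits was not tested. With the list's mean log2 value taken as the scale, 34 of 78 members were called higher by limma and 0 lower, where 63.3% of all tested genes were higher and 0.301% lower. Of the members 0 were lower at an unadjusted p under 0.05, and 6 were below 0. Their median was 0.29 and that of all genes 0.61. Cox8b (-0.06, limma adjusted p = 0.546), Sdha (0.02, limma adjusted p = 0.846) and Ndufa10 (-0.02, limma adjusted p = 0.903) lay close to the muscle scale, while Cox6a1 (1.28, limma adjusted p = 0.000964) and Cox8a (1.02, limma adjusted p = 0.00102) lay far above it. Without control replicate 1 the members called higher on this scale were 21, and without control replicate 3 or knockout replicate 3 there was 1 called lower.

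With the 67 tested nuclear members ranked by control reads per kilobase, 10 of the 22 highest were called lower (median -0.39), 8 of the 22 in the middle (-0.36) and 4 of the 23 lowest (-0.30), and both called rises were among the lowest. These counts are a description: the difference between them was not tested, and the medians lie close together. Of all tested genes 11.6% were called lower, and the share among the 23 lowest members lay nearest to that. Only 5 of the 24 calls were kept in all 16 alternative fits: Sdha, Cox5b, Cox8b, Cox6a1 and Cox8a. With libraries scaled on genes outside the lists for muscle, red cells and neutrophils and outside the 50 genes of highest level, the median of all genes moved to 0.14 and that of the members to -0.18 (nuclear -0.21, mitochondrial -0.072). In that fit 7 members were called lower (8.97%, against 5.40% of all genes) and 2 higher, and over all genes 2647 were called higher and 807 lower (76.6% of calls higher), against 1732 and 1729 under the deposited scaling.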

How the data were processed

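RNA from 8 mouse knee joint samples was selected with poly-T beads and sequenced on an Illumina NovaSeq, per the labels. Alignment with HISAT2 to mm10 and counting with featureCounts are named in the submitters' processing notes, and DESeq2 normalisation in the series' design text. Versions and the use of strand are not given in the sources used here. The deposited values are a signal: read counts divided by a size factor per library. All 8 columns were whole multiples of 1 step (100% of values, tolerance 0.01), which returned 13991000 to 17411617 reads per library.

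The test was limma 3.58.1 (R 4.3.3, intensity trend) on log2(value + 1), for 14949 genes with at least 10 in at least 4 of 8 libraries, with Benjamini-Hochberg adjustment over all of them and a threshold of 0.05. Fold changes on that scale understate low genes. Ratios of paired forms were compared by exact two-sided permutation. Alternatives were pseudocounts of 0.5 and 5, no filter, TMM scaling, scaling outside named lists, a replicate block, edgeR 4.0.16 and DESeq2 1.42.0 on recovered reads, and leaving out each library. Scripts were tested on simulated data. Replicates within groups differed beyond sampling noise (chi-square per degree of freedom 25.8 to 66.1).

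Members, lists and the genes described (core and paired subunits, mitochondrial genes, and those of smallest p or largest change) were chosen with earlier results of these data known. Of the 68 nuclear members, 30 overlap another gene in GENCODE M21, 24 of them on the opposite strand, and their counts are uncertain. A few results are not reported here.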

Additional observations from a re-analysis of the deposited data

Results flagged for a closer look

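In 104 groups of 4 libraries examined, 8 had 1 library far from the other 3, where chance gives about 1 in 20. In 6 of them the library was knockout replicate 3, above its group: Ndufv1 at 6239 normalised reads (others 4430 to 4447), Ndufa10 at 3922 (2565 to 2722), Sdhc at 5060 (3417 to 3560), Cox4i1 at 10087 (6993 to 7228), Cox6b1 at 3576 (2782 to 2914) and mt-Nd3 at 1207 (399.9 to 432). Control replicate 3 was high in mt-Co3 at 14709 (3811 to 5328), and control replicate 1 was low in Cox5b at 3920 (4424 to 4516).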

How the results depend on the processing

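Members called lower numbered 22 under the deposited scaling (28.2%, against 11.6% of all genes), 7 with scaling outside the named lists (8.97% against 5.40%), 11 with the replicate block (14.1% against 6.03%), 17 with edgeR (21.8% against 10.9%), 31 with DESeq2 (39.7% against 13.3%), and 3 (3.85% against 6.15%) to 50 (64.1% against 13.4%) when 1 library was left out. Members called higher numbered 2 in each of the 16 alternatives. Relative to the muscle list, leaving out 1 library gave 21 to 44 members called higher and 0 to 1 lower. In the replicate block, an exact paired test whose smallest p is 0.125, the ratio differences were -1.16 (Cox6a2 to Cox6a1), -1.08 (Cox8b to Cox8a) and -0.39 (Cox7a1 to Cox7a2), each with an exact p of 0.125. Same-numbered libraries had deviations correlated at 0.21, -0.12, -0.23 and -0.06, so the numbers were not taken to pair them. With 1 library left out, the ratio differences ran from -1.23 to -1.06, -1.14 to -0.99 and -0.46 to -0.30 for these pairs, from 0.42 to 0.86 for Cox4i2 to Cox4i1 and from 0.70 to 1.19 for Ndufa4l2 to Ndufa4; without any 1 control library Cox7a1 to Cox7a2 had an exact p of 0.0571.

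Of 46 genes described, 41 kept their direction in every alternative. The others, none of them called, turned: Cox7a2 to 0.012 with scaling outside the named lists and mt-Nd4l to 0.12 with edgeR and with DESeq2. With 1 library left out, Cox4i2 ran from -0.077 to 0.54, mt-Co2 from -0.27 to 0.020, mt-Nd3 from -0.32 to 0.21 and mt-Nd4l from -0.59 to 0.53. The cause was not tested. Depth limits the members with few reads, such as Cox6c2, Cox6b2 and Cox4i2.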
